A study of Mus musculus with 12 samples.

Results

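The common gamma chain (γc) cytokine receptors were followed through 8 genes, Il2ra, Il2rb, Il2rg, Il7r, Il4ra, Il21r, Il15ra and Il9r, taken by symbol from the 55228 gene symbols of a table of TPM (a length-normalised share of a library's transcripts) of cultured mouse regulatory T cells (Tregs). All 8 symbols were found, and all 8 had a mean of at least 1 TPM over the 12 libraries, the level that 15043 genes reached and that was required for a test. The study asked what IL-2 does to Tregs when an engineered IL-2 is fixed to its receptor on the cell, in place of IL-2 in the medium. An orthogonal pair (orthoIL-2 and orthoIL-2Rβ) is a cytokine and a receptor chain mutated so that they bind each other in preference to their natural partners.

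The libraries fell into 4 groups of 3. All cells were Tregs from NOD.Foxp3-GFP mice, in which GFP marks Foxp3, first sorted as GFP+CD25+ cells, activated, transduced on day 2 with a retroviral vector that carries the surface reporter Thy1.1, washed on day 4, cultured for 5 more days and sorted as Thy1.1+ on day 9. By the paper's methods, Tregs were expanded with IL-2, which the wash took away. From then on, EV no IL-2 Tregs, which carried the empty vector, were kept without IL-2. EV+IL-2 Tregs carried the same vector and were kept in 100 IU/ml mouse IL-2. By the paper's methods, the EV groups were parts of the same EV-transduced culture. The tethered groups came from separate transductions, so their differences from EV also hold any difference between transductions. In the tethered groups, 1G12t and 3A10t, an orthoIL-2 variant (1G12 or 3A10) was joined to orthoIL-2Rβ by a linker taken from CD25. The construct was placed ahead of the reporter in that vector, and no IL-2 was added after the wash. Counted from 1 at the first residue of mature mouse IL-2, 3A10 carries E29D, Q30N, M33V, D34L, Q36K and E37A, and 1G12 carries Q30N, M33V, D34L, Q36T, E37H and R41K. In the paper, soluble 1G12 at high doses also acted through the natural IL-2 receptor, whereas 3A10 had no measurable effect on it. The 3 libraries of a group came from 3 cultures of one pool of lymph node cells of 16 mice, so p-values measure the spread between cultures and not between animals. CD25, the protein of Il2ra, was part of the first sort. Foxp3, the lineage factor of Tregs, was at 369 to 510 TPM in the 12 libraries. The summed TPM of the B cell list (Cd79a, Cd79b, Ms4a1) was 8.34 to 16.0 and that of the CD8 T cell list (Cd8a, Cd8b1) was 3.45 to 6.51. The NK cell list (Ncr1, Klrb1c) reached at most 0.520 TPM. Of the myeloid list, Cst3 was at 440 to 762 TPM, whereas Lyz2 was at 0 to 0.480 TPM.

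γc, the product of Il2rg, is a shared subunit of the receptors for IL-2, IL-4, IL-7, IL-9, IL-15 and IL-21. Each receptor adds a chain or chains that give it its ligand. These are IL-2Rα (CD25) and IL-2Rβ for IL-2, IL-15Rα with IL-2Rβ for IL-15, and IL-7Rα for IL-7. IL-4Rα, IL-21R and IL-9R serve the cytokines they are named after. Chains that belong to a single receptor of this family are called private below. JAK1 binds IL-2Rβ, IL-7Rα, IL-4Rα, IL-21R and IL-9R, and JAK3 binds γc. The STAT factors, STAT5 above all for IL-2 and IL-7, carry the signal to the nucleus. Tregs are known for high CD25 and low IL-7Rα, and they depend on IL-2 made by other cells.

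Il2rb and Il2ra are shown first because the tethered construct carries part of their sequence, so that reads from the vector can fall on their rows. Positions are on GRCm38, and the bases are those of the reference strain, not of NOD mice and not of the vector, whose codons were not used here. In Il2rb (ENSMUSG00000068227.9, chr15:78479256-78495271, minus strand), exon 6 holds the residues at which the orthogonal receptor differs. The capitals in chr15:78486404-78486463 (minus strand, printed 5′ to 3′) mark the codons changed in orthoIL-2Rβ as H134D and Y135F, counted from 1 at the first residue of the mature chain.
Il2rb: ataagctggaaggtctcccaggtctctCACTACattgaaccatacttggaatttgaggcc
The other 511 of the 513 residues of the receptor chain in the construct were identical to the reference. In Il2ra (ENSMUSG00000026770.5, chr2:11642807-11693193, plus strand), the capitals mark the 81 coding bases of the 27 residues used as the linker, read across exon 4 (chr2:11680386-11680425) and exon 5 (chr2:11681931-11682001).
Il2ra: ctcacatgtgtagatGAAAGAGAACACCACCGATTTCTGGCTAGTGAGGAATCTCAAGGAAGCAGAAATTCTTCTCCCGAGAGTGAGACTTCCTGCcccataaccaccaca
The receptor chain of the construct, which starts after the signal peptide, thus corresponds to 1539 of the 4194 bases of the Il2rb transcript, and the linker to 81 of the 4412 bases of the Il2ra transcript.

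RNA of the 8 genes made up 0.304% to 0.397% of all TPM in a library. TPM are divided by transcript length, so levels of different genes can be set side by side on this scale. Values below are TPM after division by a scaling factor per library, which ran from 0.854 to 1.09. In EV no IL-2 Tregs the order was Il2rg, Il2ra, Il2rb, Il4ra, Il7r, Il21r, Il15ra and Il9r, and the 3 libraries of each gene lay above the 3 of the next. Il2rg ranked 38 to 51 among the 15043 genes of a library, Il2ra 166 to 510 and Il2rb 286 to 635. Il15ra ranked 7033 to 8458, near the middle, and Il9r ranked 11351 to 13326. In EV+IL-2 Tregs Il7r dropped below Il21r, and all neighbours in the order were again apart. In 1G12t Tregs the ranges of Il2rb and Il2ra overlapped, as did those of Il4ra and Il7r. In 3A10t Tregs the ranges of Il2ra and Il2rb, of Il4ra and Il21r, and of Il21r and Il7r overlapped.

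**Figure D1:**
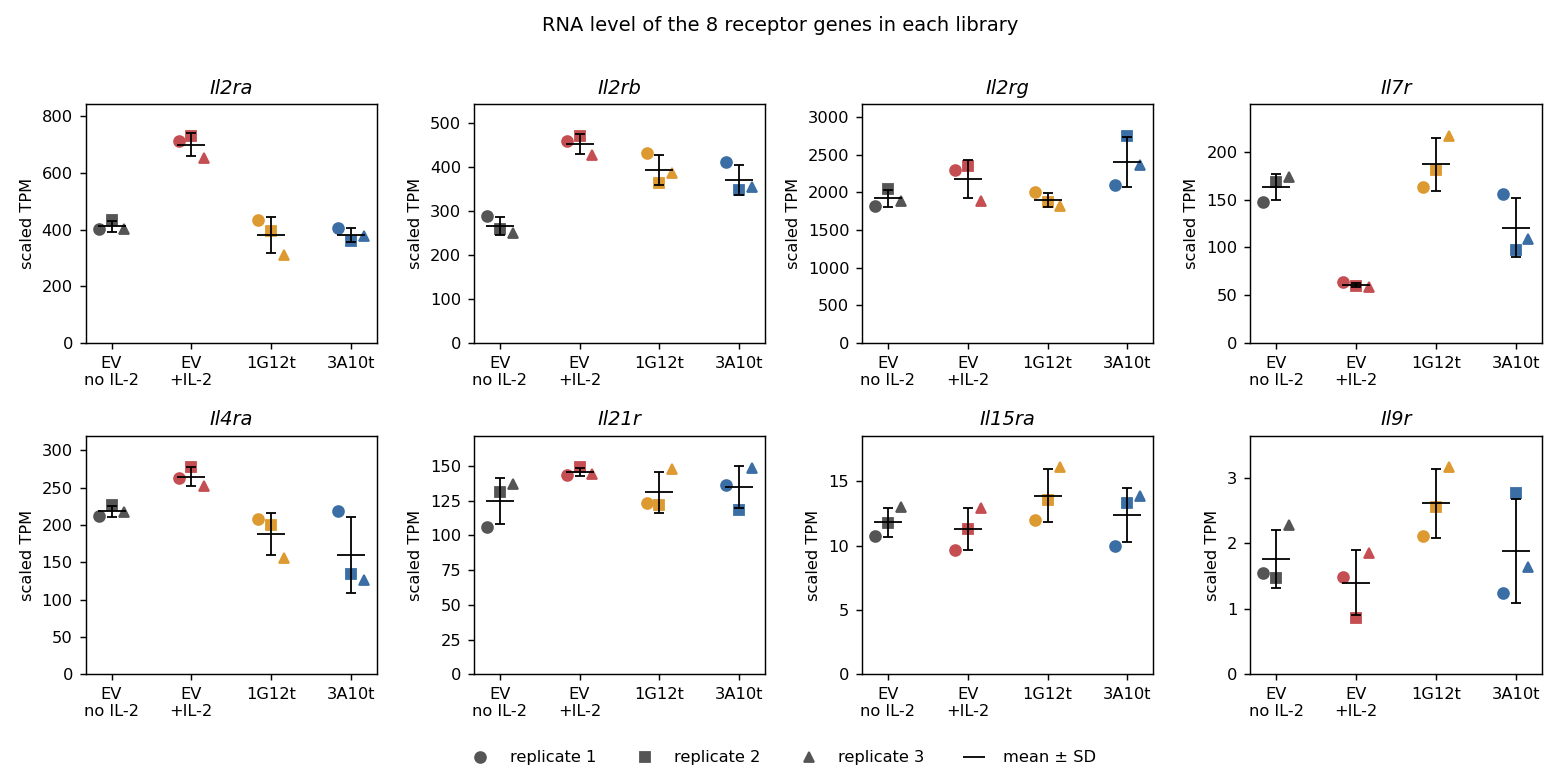
Scaled TPM (y axis, linear from 0) of the 8 receptor genes in the 12 libraries, by group (x axis). Points are libraries, shaped by replicate, and bars are the mean ± SD of 3 libraries. Il2ra was at 654 to 732 TPM in EV+IL-2 and at 310 to 434 TPM elsewhere, and Il7r was at 58.6 to 63.5 TPM in EV+IL-2 and at 97.7 to 217 TPM elsewhere.

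With soluble IL-2, Tregs held more RNA of the α and β chains of the IL-2 receptor and less RNA of the IL-7 receptor. As ratios of mean scaled TPM, Il2ra rose 1.70-fold, Il2rb rose 1.71-fold and Il7r fell to 0.371 of its level in EV no IL-2. Differences were tested with limma on log2(scaled TPM + 1) over all 15043 genes, and a gene was called at an adjusted p under 0.05. Of the 8 receptor genes 2 were called higher and 1 lower, where 13.3% of all genes tested were called, 8.17% higher and 5.13% lower. In 5 of the 8 the libraries of the groups did not overlap, against 39.6% of all genes. The median log2 difference of the 8 genes was 0.20, and that of all genes was −0.014. In bulk RNA, fewer cells of a kind and less RNA per cell cannot be told apart.

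Il2ra, the high-affinity α chain, was at 402, 434 and 400 TPM in EV no IL-2 replicates 1 to 3 and at 714, 732 and 654 TPM in EV+IL-2. The groups did not overlap. The log2 difference was 0.76 ± 0.11 (SE; limma adjusted p = 0.0012). In the tethered groups Il2ra was at 434, 396 and 310 TPM with 1G12t and at 406, 361 and 376 TPM with 3A10t. These libraries overlapped with EV no IL-2 and all lay below EV+IL-2. Against EV no IL-2 the log2 difference was −0.13 for 1G12t (95% interval −0.38 to 0.12, limma adjusted p = 0.80) and −0.11 for 3A10t (−0.36 to 0.14, adjusted p = 0.53). Against EV+IL-2 Il2ra was lower by a log2 difference of −0.89 with 1G12t (limma adjusted p = 4.1e-04) and −0.88 with 3A10t (adjusted p = 4.8e-04). The 2 tethered groups differed by 0.016 (3A10t minus 1G12t, limma adjusted p = 0.95), and the sign of this difference turned under another scaling.

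Il2rb, the β chain shared by the IL-2 and IL-15 receptors, was at 289, 259 and 250 TPM in EV no IL-2 and at 460, 472 and 428 TPM in EV+IL-2. It rose with IL-2 by a log2 difference of 0.77 (limma adjusted p = 3.1e-04), with no overlap between the groups. With the tethers the Il2rb row was at 431, 363 and 387 TPM in 1G12t and at 411, 347 and 355 TPM in 3A10t. Every tethered library lay above every EV no IL-2 library. The log2 difference from EV no IL-2 was 0.48 for 3A10t (limma adjusted p = 0.037) and 0.56 for 1G12t (adjusted p = 0.30, unadjusted p = 9.9e-05). Limma called 308 genes in all with 3A10t and 3 with 1G12t, and the adjustment runs over all genes of a comparison. Between the 2 tethers Il2rb differed by −0.086 (3A10t minus 1G12t, limma adjusted p = 0.56). The call for 3A10t held in 8 of 22 alternatives, with limma adjusted p from 0.013 to 0.23, and the log2 difference stayed between 0.33 and 0.54. Against EV+IL-2 the Il2rb row was lower by −0.29 with 3A10t (limma adjusted p = 0.046, called in 8 of 22 alternatives) and differed by −0.21 with 1G12t (adjusted p = 0.15).

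The rows of the other vector sequences separated the tethered from the EV libraries, Il2 upwards as for Il2rb and Thy1 downwards. Il2, the ligand that the tether carries in mutated form, was at 0.181 to 0.492 TPM in the 6 EV libraries. It was at 24.9, 16.9 and 12.9 TPM in 1G12t and at 29.8, 28.3 and 18.3 TPM in 3A10t. The tethered libraries were thus the only ones with Il2 above 1 TPM. Thy1, whose row takes reads of the vector reporter, was at 3111 to 3477 TPM in the 6 EV libraries, at 182 to 261 TPM in 1G12t and at 206 to 259 TPM in 3A10t. The ligand, the receptor and the reporter lie on a single vector RNA. The part of the Il2rb row that came from the vector was not tested, so a higher Il2rb row in the tethered libraries is not a measure of the natural gene alone.

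**Figure D2:**
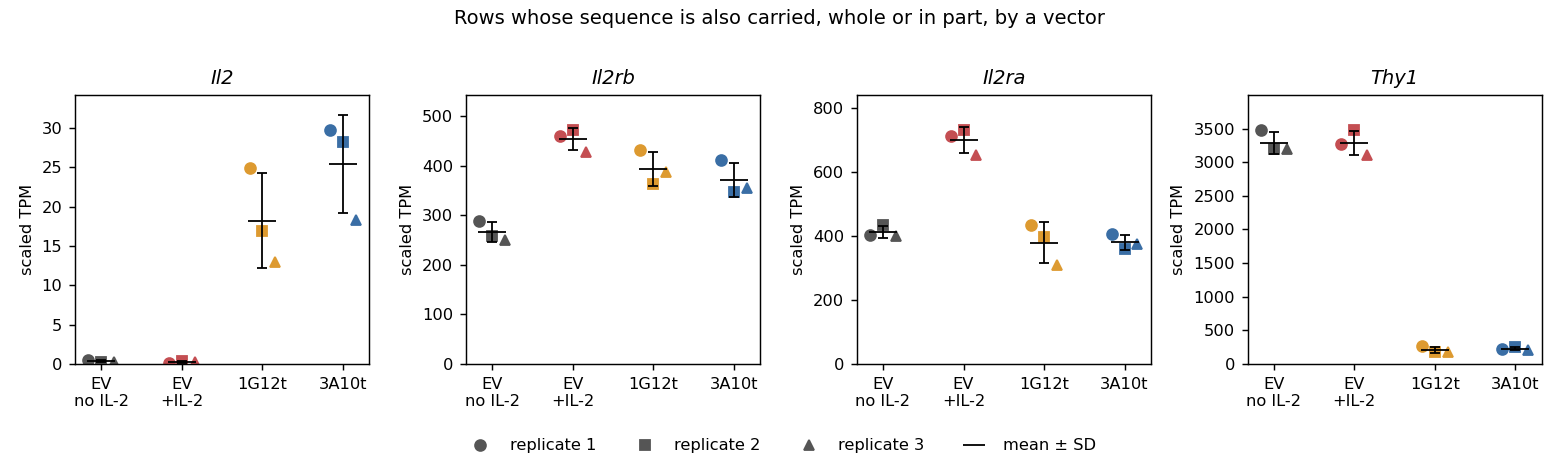
Scaled TPM (y axis, linear from 0) of Il2, Il2rb, Il2ra and Thy1 in the 12 libraries, by group (x axis), with points for libraries and bars for the mean ± SD of 3. Il2 was at 12.9 to 29.8 TPM in the tethered libraries and at no more than 0.492 TPM in the EV libraries, Il2rb was at 347 to 431 TPM in the tethered libraries against 250 to 289 TPM in EV no IL-2, and Il2ra overlapped with EV no IL-2.

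Because a ratio of 2 genes within a library does not depend on the scaling, chains were also set against each other. Il2ra over Il2rb was 1.39, 1.68 and 1.60 in EV no IL-2 and 1.55, 1.55 and 1.53 in EV+IL-2, so the chains kept their proportion while both rose. The log2 difference of that ratio was −0.0094 (exact two-sided permutation p = 1.0). With the tethers the ratio was 1.01, 1.09 and 0.800 in 1G12t and 0.989, 1.04 and 1.06 in 3A10t, below all EV libraries. The log2 difference from EV no IL-2 was −0.70 for 1G12t and −0.59 for 3A10t. The exact two-sided permutation p was 0.10 for each, the smallest that 3 against 3 libraries can give, and 0.18 after adjustment over 18 ratio comparisons. The vector carries Il2rb sequence, and its part in these ratios was not tested.

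Il2rg, the γ chain itself, was the most abundant of the 8 in every library. It was at 1819, 2049 and 1886 TPM in EV no IL-2, at 2294, 2352 and 1885 TPM in EV+IL-2, at 2000, 1867 and 1824 TPM in 1G12t and at 2090, 2753 and 2368 TPM in 3A10t. EV+IL-2 and 1G12t overlapped with EV no IL-2, whereas all 3A10t libraries lay above it. The log2 difference from EV no IL-2 was 0.18 with IL-2 (limma adjusted p = 0.37), −0.015 with 1G12t (adjusted p = 0.99) and 0.32 with 3A10t (adjusted p = 0.12). The 3A10t value was 0.17 with TPM as deposited and 0.088 after quantile normalization. Il2rg lies at chrX:101264378-101268255 (GRCm38, minus strand) inside the readthrough gene Gm20489 on the same strand, whose row was at 0 to 0.363 TPM.

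Il7r, the private chain of the IL-7 receptor, gave the largest difference of the 8 genes. It was at 148, 169 and 173 TPM in EV no IL-2 and at 63.5, 59.7 and 58.6 TPM in EV+IL-2, a log2 difference of −1.41 ± 0.16 (SE; limma adjusted p = 2.0e-04). The call held in 22 of 22 alternatives. In 1G12t Tregs Il7r was at 163, 181 and 217 TPM, overlapping with EV no IL-2 (log2 difference 0.19, limma adjusted p = 0.80). In 3A10t Tregs it was at 155, 97.7 and 109 TPM, with replicate 1 among the EV no IL-2 libraries and replicates 2 and 3 below them (log2 difference −0.46, limma adjusted p = 0.12). Both tethered groups lay above EV+IL-2, by 1.60 for 1G12t (limma adjusted p = 8.2e-05) and by 0.95 for 3A10t (adjusted p = 0.0023). Between the tethers Il7r was lower with 3A10t by −0.65 (limma adjusted p = 0.0497), and the groups did not overlap. That call held in 5 of 22 alternatives and was lost with the replicate number as a block (limma adjusted p = 0.055).

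The Il7r promoter is shown because, of the 8 promoters listed for 7 of the receptor genes, it was the only one with the letters TTCNNNGAA, the core to which STAT5 is known to bind. The bases are from RefSeq on GRCm38.p6, chr15:9529877-9530126 (minus strand), the 250 bases before the RefSeq start, with the match at −142 to −134 in capitals. The GENCODE gene (chr15:9505788-9530176) starts further upstream and holds this stretch, which is before the start by RefSeq only.
Il7r promoter: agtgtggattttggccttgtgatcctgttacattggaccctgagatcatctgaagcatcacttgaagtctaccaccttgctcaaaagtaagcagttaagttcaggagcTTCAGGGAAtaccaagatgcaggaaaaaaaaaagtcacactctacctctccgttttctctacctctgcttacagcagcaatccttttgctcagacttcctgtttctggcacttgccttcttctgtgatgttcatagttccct
On both strands of the 300 bases around each start, TTCNNNGAA was found in 8.30% of 32851 mouse promoters. The STAT6-type form, which has a longer spacer between the same arms, was in 0 of the 8 and in 6.95% of all, and the forkhead letters GTAAACA were in that of Il21r alone and in 3.65% of all. A match of letters is not a binding site, and no binding was measured. Il2rb had no entry.

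Il4ra, the private chain of the IL-4 receptor and a chain of the IL-13 receptor, was at 212, 227 and 218 TPM in EV no IL-2 and at 264, 278 and 252 TPM in EV+IL-2. The groups did not overlap, but the log2 difference of 0.27 did not pass the test (limma adjusted p = 0.40), although it did when only those 6 libraries were fitted (adjusted p = 0.015). Il4ra was at 208, 200 and 156 TPM in 1G12t and at 219, 135 and 126 TPM in 3A10t, where replicate 1 again stood with EV no IL-2. The log2 difference from EV no IL-2 was −0.23 for 1G12t (limma adjusted p = 0.79) and −0.49 for 3A10t (adjusted p = 0.13). Against EV+IL-2 it was lower with 3A10t by −0.77 (limma adjusted p = 0.013), a call lost when only those 6 libraries were fitted (adjusted p = 0.068), and it differed by −0.50 with 1G12t (adjusted p = 0.078). The 1G12t difference was called with only those 6 libraries (limma adjusted p = 0.028) and without 3A10t replicate 1 (adjusted p = 0.0070).

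The remaining private chains were not called in any of the 6 comparisons. Il21r, the IL-21 receptor, was at 106, 132 and 137 TPM in EV no IL-2, at 144, 149 and 144 TPM in EV+IL-2, at 123, 122 and 148 TPM in 1G12t and at 137, 119 and 148 TPM in 3A10t. Each EV+IL-2 library was above each EV no IL-2 library (log2 difference 0.23, limma adjusted p = 0.26), and the tethered libraries overlapped with both EV groups. Il15ra, which presents IL-15, was at 10.7, 11.8 and 13.0 TPM in EV no IL-2, at 9.65, 11.3 and 12.9 TPM in EV+IL-2, at 12.03, 13.5 and 16.1 TPM in 1G12t and at 10.0, 13.3 and 13.8 TPM in 3A10t. All 4 groups overlapped. Its largest log2 difference was 0.28, 1G12t against EV+IL-2 (limma adjusted p = 0.22, and 0.034 with the replicate block). Il9r, the IL-9 receptor, was near the lowest level tested, at 1.54, 1.47 and 2.28 TPM in EV no IL-2 and 1.48, 0.870 and 1.85 TPM in EV+IL-2. It was at 2.11, 2.56 and 3.17 TPM in 1G12t and at 1.24, 2.76 and 1.64 TPM in 3A10t. The 1G12t libraries of Il9r lay above those of EV+IL-2 (log2 difference 0.60, limma adjusted p = 0.10).

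Fewer of the 8 genes were called with the tethers than with soluble IL-2 against EV no IL-2, and fewer of all genes were called too. With 3A10t 1 gene was called higher (the Il2rb row) and 0 lower against EV no IL-2, where limma called 2.05% of all genes, 0.452% higher and 1.6% lower. Of the 8 genes 4, and of all genes 26%, had an unadjusted p under 0.05. With 1G12t limma called 0 of the 8, and 0.0199% of all genes, and 1 of the 8 (the Il2rb row) had an unadjusted p under 0.05, as did 7.04% of all genes. At the study's threshold (unadjusted p under 0.01, log2 difference beyond 0.25) the Il2rb row was the only receptor gene for either tether, with 9.5% of all genes passing for 3A10t and 1.36% for 1G12t. Between the tethers 1 gene (Il7r) was called lower with 3A10t, where limma called 4.27% of all genes and 2.96% lower. That call was lost with the replicate block. Against EV+IL-2, 3A10t gave 1 gene higher (Il7r) and 3 lower (Il2ra, Il2rb, Il4ra), with 23.4% of all genes called (10.3% higher, 13% lower), and 1G12t gave 1 higher (Il7r) and 1 lower (Il2ra), with 20.6% called (9.69% higher, 10.9% lower). The comparisons with EV no IL-2 share its 3 libraries, as those with EV+IL-2 share theirs. Groups did not overlap for 2 of the 8 genes with 3A10t (25.4% of all genes) and for 2 with 1G12t (16.5%) against EV no IL-2. They did not overlap for 2 between the tethers (26.2%), and for 4 with 3A10t (36.9%) and 4 with 1G12t (43.2%) against EV+IL-2.

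**Figure D3:**
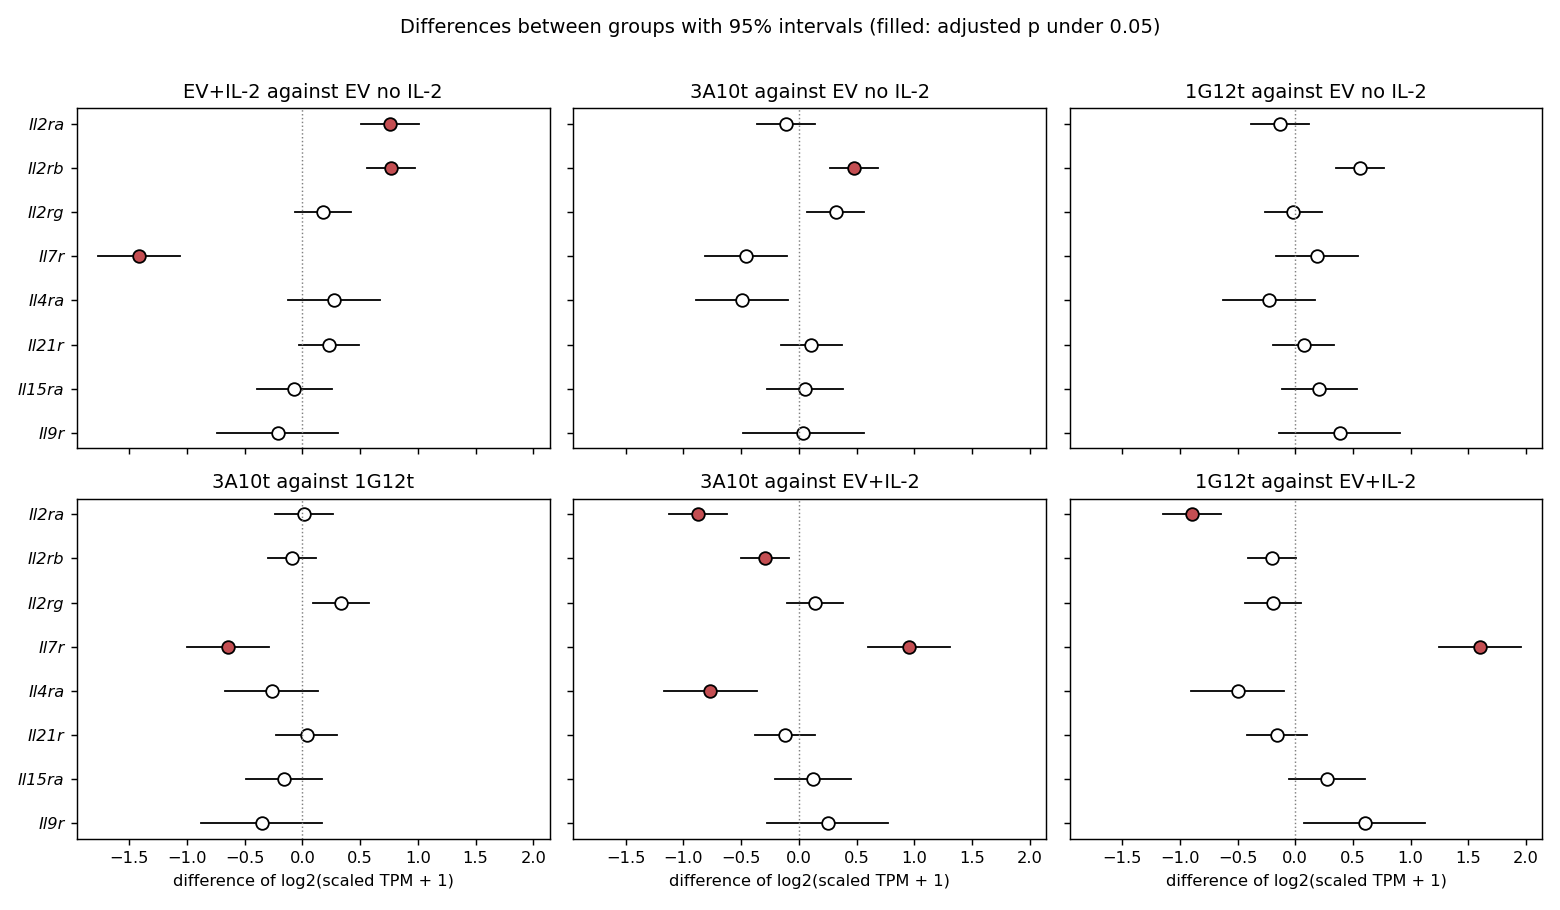
Differences of log2(scaled TPM + 1) (x axis) of the 8 genes (y axis) in the 6 comparisons, as points with 95% intervals from the limma fit of 12 libraries. Filled points had an adjusted p under 0.05. Il2ra, Il2rb and Il7r were called with soluble IL-2, the Il2rb row with 3A10t, and none with 1G12t, against EV no IL-2.

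Replicate 1 of 3A10t stood apart from replicates 2 and 3 in several receptor genes. Without it, Il2rb, Il2rg, Il7r and Il4ra were called against EV no IL-2, with limma log2 differences of 0.41, 0.42, −0.65 and −0.74 and adjusted p of 0.013, 0.025, 0.0049 and 0.0018. For Il2rb the difference with all libraries was larger (0.48), yet its limma adjusted p was higher (0.037). Against 1G12t, without that library, Il2rg, Il7r and Il4ra were called, with log2 differences of 0.43, −0.84 and −0.51. The share of all genes called without that library was not counted. These calls thus have no background beside them and cannot be read as particular to the receptor genes. The library stood apart in the same way in Stat6, the factor that IL-4Rα activates, at 187, 111 and 105 TPM in 3A10t replicates 1 to 3, and in Stat5a, at 57.3, 38.9 and 37.9 TPM. With either of the other 3A10t libraries left out, 0 of the 8 genes were called in either of these comparisons.

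**Figure D4:**
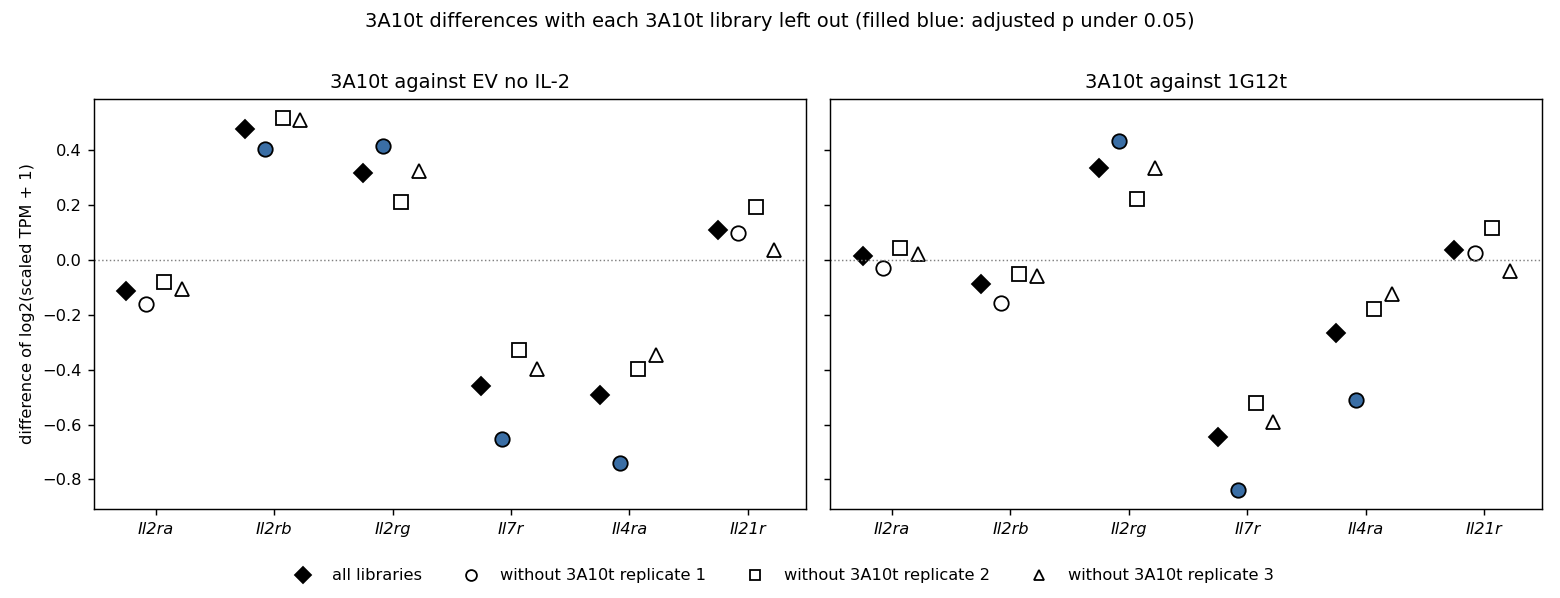
Difference of log2(scaled TPM + 1) (y axis) for 6 receptor genes, without Il15ra and Il9r (x axis), with all libraries (black diamonds) and with each 3A10t library left out (circles, squares and triangles). Blue filled symbols (adjusted p under 0.05) occurred only without replicate 1, where Il7r reached −0.65 and Il4ra −0.74 against EV no IL-2.

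Set over the γ chain of the same library, the private chains of the IL-7 and IL-4 receptors showed the same spread. Il7r over Il2rg was 0.0812, 0.0823 and 0.0918 in EV no IL-2, and it was 0.0277, 0.0254 and 0.0311 in EV+IL-2, a log2 difference of −1.60. With 3A10t it was 0.0743, 0.0355 and 0.0459, a log2 difference of −0.78, and with 1G12t the difference was 0.21. Il4ra over Il2rg was 0.116, 0.111 and 0.116 in EV no IL-2 and 0.105, 0.0490 and 0.0533 in 3A10t, a log2 difference of −0.81. For the ratios that did not overlap, the exact two-sided permutation p was 0.10, the smallest possible. The Il2ra and Il2rb ratios over Il2rg rose with IL-2 by 0.59 each. With the tethers Il2ra over Il2rg differed from EV no IL-2 by −0.11 (1G12t) and −0.43 (3A10t), and Il2rb over Il2rg by 0.58 and 0.16. With a library left out, the 3A10t difference of Il2rb over Il2rg ran from −0.00999 (without 3A10t replicate 1) to 0.31 (without replicate 2). That of Il2ra over Il2rg was −0.00195 for 1G12t without 1G12t replicate 3, and it ran from −0.58 to −0.29 for 3A10t.

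**Figure D5:**
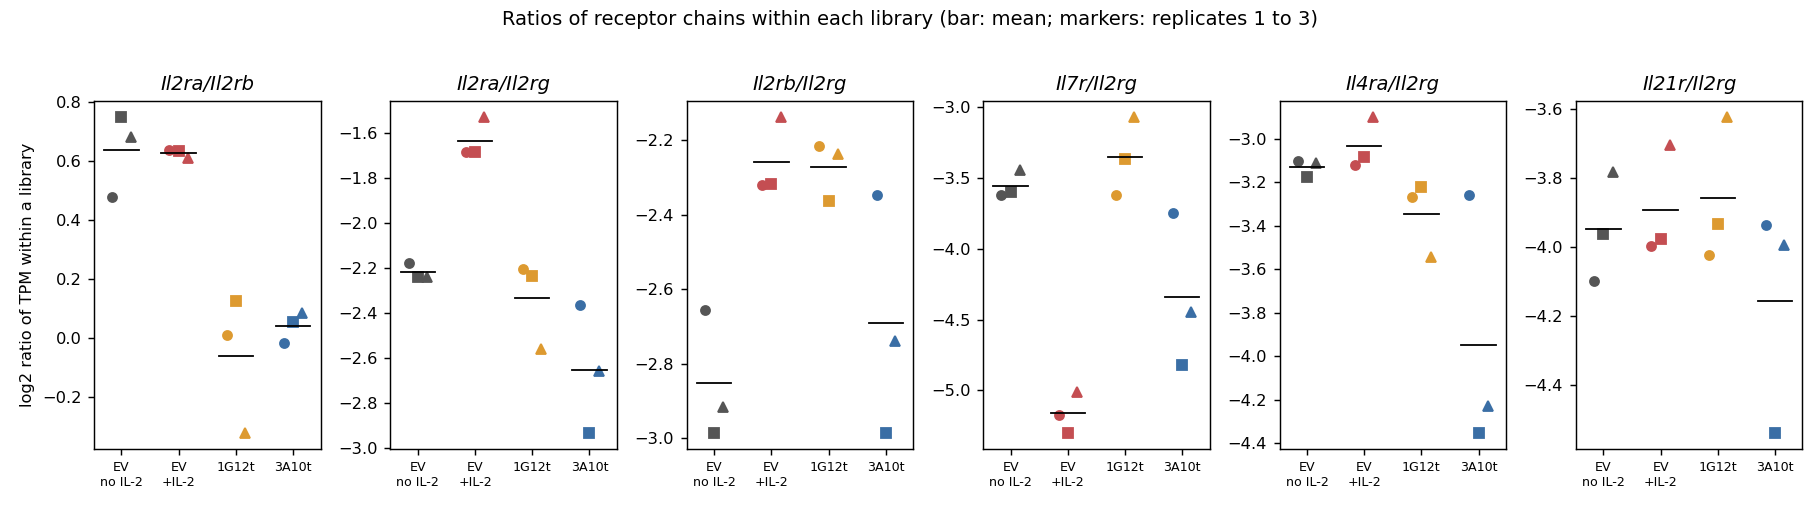
Log2 ratio of the TPM of 2 receptor chains within each library (y axis, a separate scale per panel) for 6 pairs, by group (x axis); points are libraries and bars are means. The Il2ra/Il2rb ratio was lower in the 6 tethered than in the 6 EV libraries, and the Il7r/Il2rg ratio was lowest in EV+IL-2.

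Few ligands of these receptors were found in the cells. Of Il2, Il4, Il7, Il9, Il15 and Il21, only the Il2 row reached the level for a test, through the tethered libraries. Il4 was at 1.66, 1.59 and 1.59 TPM in EV+IL-2 and at 0.112 to 0.873 TPM in the other 9 libraries, below the level for a test. Il9 was listed at 0 in 10 of 12 libraries. Of the chains that pair with a receptor gene here in another receptor, Crlf2, which joins IL-7Rα in the TSLP receptor, was at 12.6 to 18.2 TPM and was not called in any comparison. Il13ra1, which joins IL-4Rα in a second IL-4 receptor, was at no more than 0.119 TPM.

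Downstream of the receptors, soluble IL-2 went with lower RNA of some signal carriers and higher RNA of their inhibitors, in a comparison in which 13.3% of all genes were called. Of 9 JAK and STAT genes tested, 3 were called lower in EV+IL-2, Stat5b (log2 difference −0.73, limma adjusted p = 8.6e-04), Stat5a (−0.65, adjusted p = 0.0079) and Jak1 (−0.57, adjusted p = 0.015). Jak3, the kinase of γc, differed by 0.37 (limma adjusted p = 0.083). Of the 4 feedback inhibitors, Socs1 (1.28), Cish (0.89) and Socs2 (0.87) were called higher, and Socs3 (0.62, limma adjusted p = 0.093) was not. With 3A10t against EV no IL-2, limma called 0 of the 9 signal genes, 4 with an unadjusted p under 0.05, and 1 of the 4 inhibitors, Socs2 (0.44, adjusted p = 0.027), beside 2.05% of all genes called and 26% at that unadjusted p. With 1G12t limma called none of these 13 genes, and none had an unadjusted p under 0.05, beside 0.0199% and 7.04% of all genes.

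Of 12 transcription factors known to act on receptor genes, 3 were called with IL-2, beside the 13.3% of all genes. Runx3 was higher with IL-2 (0.49, limma adjusted p = 0.0018), and Ets1 (−0.56, adjusted p = 0.0054) and Rel (−0.40, adjusted p = 0.0495) were lower. Foxo1, which is known to activate Il7r, differed by −0.67 with a wide spread and was not called. Against EV no IL-2 limma called 0 of the 12 with either tether, with 6 (3A10t) and 2 (1G12t) at an unadjusted p under 0.05, a level that 26% and 7.04% of all genes reached. Rel was lower in 3A10t than in 1G12t (−0.54, limma adjusted p = 0.041).

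Some cytokine receptor chains outside the γc family also differed with IL-2. Of 31 class I and II chains, 18 were tested, and with IL-2 5 were called higher and 2 lower, beside 8.17% and 5.13% of all genes. The smallest p were those of Il12rb2 (1.45, limma adjusted p = 6.6e-04), Il3ra (0.74, adjusted p = 0.0040), Csf2rb (−1.06, adjusted p = 0.0040) and Il10ra (0.68, adjusted p = 0.026). With the tethers limma called 0 of the 18 against EV no IL-2, with 6 (3A10t) and 1 (1G12t) at an unadjusted p under 0.05, beside 26% and 7.04% of all genes.

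The 8 genes lie on 5 chromosomes, and 4 of them form neighbouring pairs. Il2ra and Il15ra (chr2:11705290-11734317) are 12097 bases apart on chromosome 2 with no protein-coding gene between them, yet Il2ra rose with IL-2 (0.76) whereas Il15ra did not pass the test (−0.068, limma adjusted p = 0.85). Il4ra (chr7:125552120-125579474) and Il21r (chr7:125603429-125633570) are 23955 bases apart on chromosome 7, and in 3A10t against EV+IL-2 only Il4ra was called. Of the nearest protein-coding genes outside the family, Med12, which lies 5775 bases from Il2rg, was lower in 3A10t than in 1G12t (−0.58, limma adjusted p = 0.032). It is an example from a comparison in which limma called 4.27% of all genes. Calls among the other neighbours were not counted here. The other genes lie at chr15:9505788-9530176 (Il7r) and chr11:32187541-32200279 (Il9r), all on GRCm38.

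Over the 12 libraries, the genes whose log2 levels followed a receptor most closely were described among 8786 protein-coding genes, with no test. For Il2ra they were Map3k8 (Pearson r = 0.991), Tube1 (0.987) and Cd86 (0.985). Cd86, a costimulatory ligand, was at 62.7 to 82.8 TPM in EV+IL-2 and at 16.5 to 33.1 TPM elsewhere. For Il7r they were Rnf216 (r = 0.983), Cxcr4 (0.973) and Dennd2d (0.973). Cxcr4, a chemokine receptor, was at 31.9, 31.9 and 30.9 TPM in EV no IL-2, at 8.61 to 9.88 TPM in EV+IL-2 and at 16.7 ± 5.51 TPM (SD, n = 3) in 3A10t. For Il4ra they were Cmtm6 (r = 0.988), Mybbp1a (0.985) and Txnrd1 (0.984), and for Il2rg Zap70 (0.960), Ndufb8 (0.949) and Eno1b (0.945). Closest to Il15ra was Rsf1 (0.943). The highest r for Il21r was lower (Myef2, 0.859). These r rest on 4 groups of 3 libraries and share the groups' differences.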

How the data were processed

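RNA was measured in 12 libraries, 3 in each of 4 groups named by the sample labels. The deposited values are TPM, which the authors made by trimming reads with Cutadapt 1.18, aligning them to mm10 with STAR 2.5.3 and estimating expression with RSEM 1.3.0 on GENCODE gene models. DESeq2 1.26 was run by the authors on counts that were not used here. Since depth cannot be read from TPM, no value has a counting error, and the spread between 3 libraries is the only error.

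Genes were kept from a mean of 1 TPM upwards (15043 genes), and the TPM were divided by median-of-ratios factors computed on them. Log2(scaled TPM + 1) was tested with limma 3.58.1 (R 4.3.3; lmFit, then eBayes with its trend option), with 12 libraries in the fit, a mean per group and Benjamini-Hochberg adjustment over all genes tested. Log2 differences are on that scale and understate those of low genes. Ratios of chains were tested with an exact permutation test (Python 3.11.15, scipy 1.17.1). The code was tested on simulated data. Alternatives were other pseudocounts, filters and scalings, the replicate number as a block, no trend, only the 6 libraries compared, and each library left out.

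The members and lists were chosen with earlier results of these data known. Named were all 8 receptor genes, their ligands and partner chains, Thy1, at most 4 genes with the smallest p from each further list, the nearest protein-coding genes, and the 3 genes of highest r. Socs3, Jak3, Foxo1, and Stat6 and Stat5a in 3A10t, were named beyond the rule after their values were seen. Of the genes that the rule names, 2 are not reported here. The labels tie the replicate number to a shared sort, so the pairing comes from the design. The main fit and the permutation tests did not use that pairing, which entered only as the replicate block among the alternatives. Deviations from the group means had a mean correlation of 0.041 (−0.11 to 0.15) over 18 same-number pairs of libraries and −0.020 over 36 others. The paper's methods name spleens beside lymph nodes and another sort gate, whereas the labels are followed here. GENCODE M21 (GRCm38) gave genes and positions and held 53569 of the 55228 symbols, and promoters are from RefSeq. Figures used matplotlib 3.10.9.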

Additional observations from a re-analysis of the deposited data

How the results depend on the processing

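Over 48 results (8 genes in 6 comparisons) and 1050 values under alternatives, 966 kept their direction and their side of the threshold, 46 lost the call, 9 gained one and 29 changed sign, in 10 results. No call of Il2ra, Il2rb or Il7r with soluble IL-2 was lost under the 22 alternatives. The count of receptor genes called for 3A10t against EV no IL-2, 1 as reported, was 0 with no filter on low TPM, TPM as deposited, quantile normalization, eBayes without a trend or only the 6 libraries compared, and 0 to 4 with a library left out. For 3A10t against 1G12t the count of 1 became 0 with a pseudocount of 5, no filter, scaling by protein-coding genes, the replicate block, no trend or 6 libraries, and 0 to 3 with a library left out. For 3A10t against EV+IL-2 the count of 4 became 2 with 6 libraries. The cause was not tested. The share of all genes called was not counted under these alternatives. With the replicate block the pairing changed 2 calls, Il7r between the tethers (−0.65, limma adjusted p = 0.055) and Il15ra in 1G12t against EV+IL-2 (0.28, adjusted p = 0.034), and no other. The log2 ratio of Il4ra over Il2rg in 3A10t against EV no IL-2 ran from −1.16 (without 3A10t replicate 1) to −0.61 with a library left out. TPM as deposited moved the median of all genes by −0.12 (3A10t against EV no IL-2) and −0.16 (3A10t against 1G12t).

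Sign changes were of small differences. With TPM as deposited, the values for 3A10t against EV no IL-2 were −0.039 (Il21r), −0.086 (Il15ra) and −0.066 (Il9r), for 1G12t against EV no IL-2 0.028 (Il2rg), and for 3A10t against 1G12t −0.18 (Il2ra) and −0.15 (Il21r). With quantile normalization they were −0.11 (Il9r, 3A10t against EV no IL-2), 0.066 (Il2rg, 1G12t against EV no IL-2), −0.20 (Il2ra) and −0.075 (Il21r) for 3A10t against 1G12t, and 0.017 (Il2rg, 1G12t against EV+IL-2). With a library left out the ranges were −0.16 to 0.031 (Il15ra, EV+IL-2), −0.0014 to 0.19 (Il21r, 3A10t), −0.028 to 0.19 (Il15ra, 3A10t), −0.18 to 0.20 (Il9r, 3A10t), −0.23 to 0.012 (Il2ra, 1G12t), −0.054 to 0.029 (Il2rg, 1G12t) and −0.041 to 0.14 (Il21r, 1G12t) against EV no IL-2, and −0.12 to 0.12 (Il2ra) and −0.040 to 0.13 (Il21r) for 3A10t against 1G12t. Il9r gave no value at a mean TPM of at least 5. TPM keep no depth, which limits what can be said of Il9r, and vector RNA could not be split from the Il2rb row.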
